A study of Mus musculus with 15 samples.

Results

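The genes that build, load and switch on MHC class II were followed in sorted mouse kidney fibroblasts: Cd74, H2-Aa, H2-Ab1, H2-Eb1, H2-DMa, H2-DMb1 and Ciita. All 7 were found among 17097 genes with a probe set that named only that gene, and all 7 passed the filter on dim values, as did 13523 genes in all. They were chosen by measured values, as genes low at day 3 after folic acid and high at days 7 and 14. Their levels at those days are therefore a description with no test. Cells came from kidneys of adult C57BL/6 mice, and the labels call them PDGFRa-positive fibroblasts obtained by FACS. The 15 arrays fell into 5 groups of 3: uninjured kidney, folic acid-induced acute kidney injury sampled on day 3, 7 or 14, and unilateral ureteral obstruction (UUO) sampled on day 14. No allele or transgene is named for any group, and arrays are called here by the running number in their titles, from 1 to 15. The labels name neither separate animals nor pools behind the arrays, so a p-value here reflects sample-to-sample spread that could be technical.

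MHC class II molecules present peptides from the endosome to CD4 T cells. An alpha and a beta chain pair in the endoplasmic reticulum with the invariant chain Cd74, which blocks the groove and routes the pair to endosomes. There proteases trim Cd74 to a short peptide, and the H2-DM dimer exchanges that peptide for antigen. The coactivator Ciita is recruited to an enhanceosome on the X and Y boxes of these promoters, and interferon gamma induces it in cells that do not present antigen all the time. Dendritic cells, B cells and macrophages carry class II constitutively or readily, while in kidney fibroblasts it is usually described as inducible.

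The classical and H2-DM genes lie together in the H2 region of chromosome 17 (GRCm38.p6, RefSeq). H2-DMa spans 34119693 to 34139101, H2-DMb1 34153191 to 34160229, H2-Ab1 34263227 to 34269418, H2-Aa 34282744 to 34287823 and H2-Eb1 34305867 to 34316674. Ciita lies on chromosome 16 at 10480014 to 10531064. RefSeq promoter windows of 300 bases were held for H2-Aa, H2-Eb1, H2-DMb1 and H2-DMa. The stretch from 110 to 36 bases before the start is shown for the 3 genes in which shared letters were found, because the X and Y boxes lie in this part of class II promoters.
H2-Eb1, chr17:34305757-34305831, plus strand: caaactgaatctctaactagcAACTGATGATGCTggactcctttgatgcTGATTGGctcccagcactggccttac
H2-DMb1, chr17:34153081-34153155, plus strand: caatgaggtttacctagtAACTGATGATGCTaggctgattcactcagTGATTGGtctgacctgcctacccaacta
H2-Aa, chr17:34287859-34287933, minus strand: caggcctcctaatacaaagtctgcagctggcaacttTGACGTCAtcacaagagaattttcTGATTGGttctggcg
Capitals mark the run AACTGATGATGCT, shared by H2-Eb1 and H2-DMb1, the run TGATTGG, shared by all 3, and the palindrome TGACGTCA in H2-Aa. These letters were picked after the windows were read.

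The run of 13 letters shared by H2-Eb1 and H2-DMb1 was held by 3 of 32851 promoter windows, 0.00913%, searched on both strands. The 3 include the H2-Eb1 and H2-DMb1 windows from which the run was picked. The share is therefore no test of how rare such a shared run is. TGATTGG was held by 7.82% and TGACGTCA by 1.79% of windows. The gap from the upstream run to TGATTGG was 15 bases in H2-Eb1 and 16 in H2-DMb1, and the gap from TGACGTCA to TGATTGG in H2-Aa was also 16 bases. Of the listed motifs, the Y box CTGATTGG, which contains TGATTGG and overlaps the reverse of CCAAT, was matched in H2-Aa and H2-Eb1 and in 4.1% of windows. The X box core AGNNACAG was matched only in H2-Eb1, at positions -7 and 31 from the start, and in 25.9% of windows. CCAAT was held by 37.4% of windows. The interferon gamma element TTCNNNGAA and the interferon element TTCNNTTTC were held by 8.3% and 8.56% of windows, and neither was matched in the windows of these 4 genes. These matches describe the letters only.

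The arrays were comparable in overall level, with medians of 4.93 to 5.06 on the log2 scale and correlations of 0.863 to 0.976 between arrays of a group. Col1a1, a fibrillar collagen chain, lay at 10.6 to 12.5 in the injured kidneys and 6.72 to 6.86 in uninjured kidney, and Acta2, smooth muscle actin, at 10.1 to 12.2 and 8.16 to 8.39. The mean of 8 proximal tubule markers was 7.81 to 9.25 in uninjured kidney and 5.19 to 5.47 in UUO, and after folic acid 5.88 to 6.04 on day 3, 5.20 to 7.85 on day 7 and 6.63 to 8.88 on day 14. Of these 8 markers 5 fell on day 3, 2 on day 7 and 6 in UUO by limma. The day 3 count was 3 without array 1, 2 or 3, 2 without array 14 and 1 without array 15, and the day 7 count was 5 without array 4, 1 without array 13 or 14 and 0 without array 5, 6 or 15. Pdgfra itself, the gene used in the sort, lay between 4.25 and 7.20 and overlapped among all groups. Macrophage markers were also high at folic acid days 7 and 14, with the mean of the 20 listed markers at 6.86 to 8.07 at day 7 and 6.44 to 7.92 at day 14, against 5.08 to 5.17 in uninjured kidney. Array 8 of the day 14 group stood apart from the other two in these markers, so the members' differences and the list counts on day 14 are also given without it. In RNA of a sorted population, fewer cells of a type and less RNA per cell cannot be told apart.

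Cd74, the invariant chain, gave log2 levels of 6.50, 6.72 and 6.48 without injury and 6.00, 5.83 and 6.14 at folic acid day 3. At day 7 it read 10.27, 10.08 and 9.84, and at day 14 it read 10.53, 10.04 and 11.05. In UUO the arrays gave 7.77, 8.32 and 7.00. Day 3 lay below every other group, days 7 and 14 overlapped each other above all the rest, and UUO lay alone between. The mean difference from uninjured kidney was -0.58 (SE 0.30) at day 3, 3.50 (SE 0.30) at day 7 and 3.97 (SE 0.30) at day 14, the last being 15.7-fold. Without array 8 the day 14 difference was 4.22, and over the alternatives listed below it ran from 3.72 to 4.22.

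H2-Aa, the alpha chain of the I-A molecule, read 6.45, 6.57 and 6.81 in the uninjured group and 7.11, 7.29 and 7.18 at folic acid day 3. It read 10.72, 10.80 and 10.74 at day 7, 10.87, 11.00 and 11.20 at day 14, and 8.99, 9.09 and 9.64 in UUO. No pair of groups overlapped, and the order was uninjured, day 3, UUO, day 7, day 14. H2-Aa was thus the member whose day 3 arrays were all above uninjured kidney, by 0.59 (SE 0.17). Its difference from uninjured kidney was 4.15 (SE 0.17) at day 7 and 4.41 (SE 0.17) at day 14, folds of 17.7 and 21.3, and the second was 4.43 without array 8. The day 3 and day 7 means of H2-Aa differed by 3.56.

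H2-Ab1, the beta chain that pairs with H2-Aa, read 5.48, 5.58 and 6.28 in the uninjured group and 5.17, 5.03 and 5.50 at folic acid day 3. It read 9.39, 9.41 and 8.78 at day 7, 10.26, 8.89 and 10.34 at day 14, and 6.77, 6.63 and 6.63 in UUO. Uninjured kidney and day 3 overlapped, as did days 7 and 14, while UUO lay in the gap between those pairs. The difference from uninjured kidney was -0.55 (SE 0.35) at day 3, 3.41 (SE 0.35) at day 7 and 4.05 (SE 0.35) at day 14. Without array 8 the day 14 difference was 4.52, and over the alternatives listed below it ran from 2.84 to 4.52.

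H2-Eb1, the beta chain of the I-E molecule, read 6.60, 6.72 and 6.61 in the uninjured group and 5.99, 6.27 and 6.58 at folic acid day 3. It read 9.55, 9.81 and 9.41 at day 7, 10.35, 9.72 and 10.50 at day 14, and 7.45, 7.64 and 7.61 in UUO. The day 3 arrays lay just below the uninjured arrays, and days 7 and 14 overlapped. The differences from uninjured kidney were -0.36, 2.95 and 3.54 (each SE 0.20) at days 3, 7 and 14, the last being 3.78 without array 8. Over the alternatives listed below the day 14 difference ran from 3.39 to 3.78. H2-Ea, the gene for the partner alpha chain of I-E and annotated by RefSeq as a transcribed pseudogene, had none of this rise, as its values below show.

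**Figure D1:**
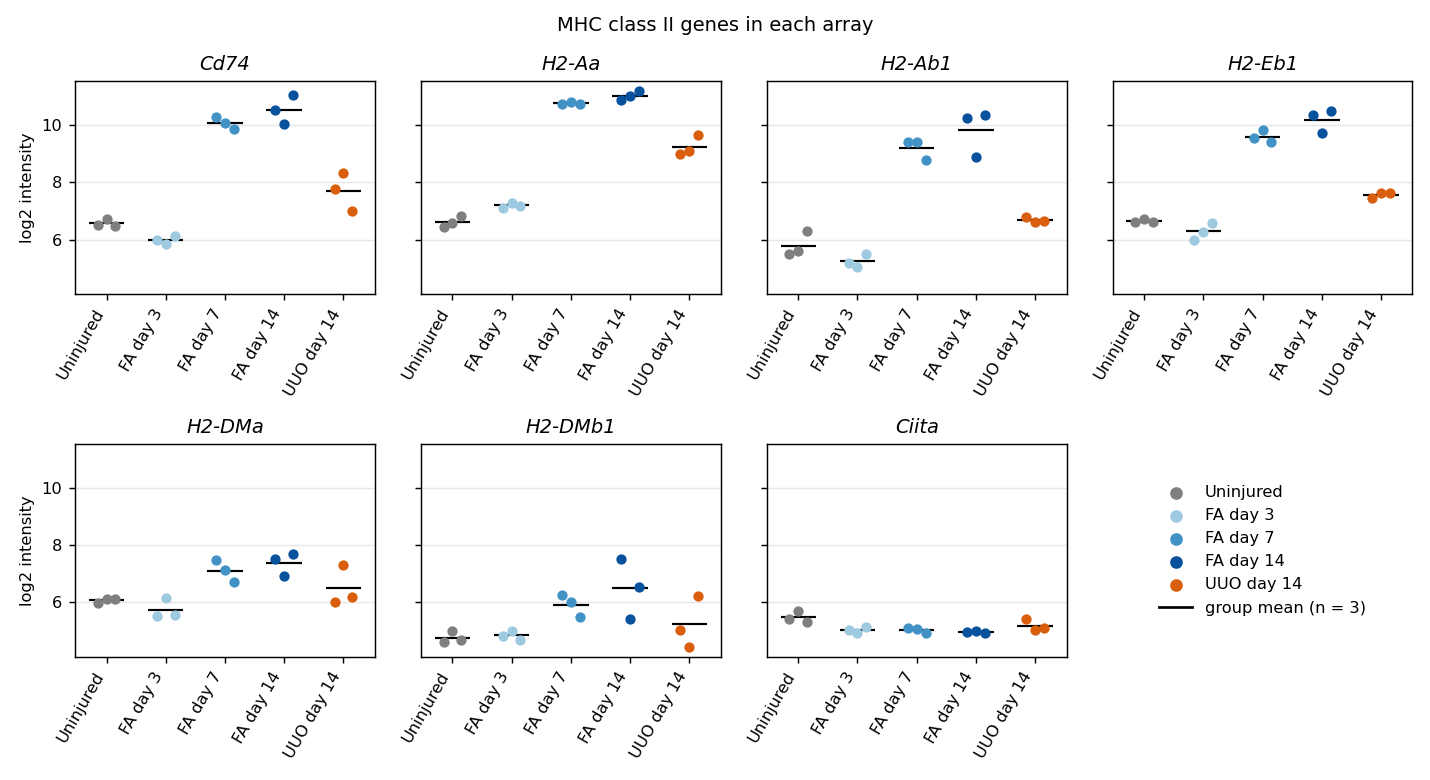
Log2 intensity of the 7 MHC class II genes in each of 15 arrays, by group (FA, folic acid, UUO, unilateral ureteral obstruction), with bars at the mean of 3 arrays. Cd74, H2-Aa, H2-Ab1 and H2-Eb1 lay highest at folic acid days 7 and 14 and between the extremes in UUO, H2-DMa and H2-DMb1 spanned a smaller range, and Ciita stayed between 4.92 and 5.70.

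The H2-DM genes encode the dimer that loads peptide. H2-DMa read 5.98, 6.13 and 6.11 in uninjured kidney and 5.50, 6.14 and 5.56 on day 3 of folic acid. It then read 7.46, 7.11 and 6.70 on day 7 and 7.52, 6.93 and 7.69 on day 14. Its UUO arrays read 6.02, 7.29 and 6.17, with array 11 within the day 7 range and the other two within or beside the uninjured range. H2-DMb1 read 4.62, 4.99 and 4.67 in uninjured kidney, 4.83, 5.00 and 4.68 at day 3, 6.25, 6.00 and 5.48 at day 7, and 7.52, 5.42 and 6.52 at day 14. Its UUO arrays read 5.04, 4.44 and 6.20, running from below the lowest uninjured array to within the day 7 range. H2-DMb1 passed the 40th percentile of its array in 13 of 15 arrays, against 15 for each of the others. The differences from uninjured kidney at days 7 and 14 were 1.02 and 1.31 for H2-DMa (SE 0.33) and 1.15 and 1.73 for H2-DMb1 (SE 0.49). Without array 8 the day 14 differences were 1.53 for H2-DMa and 2.26 for H2-DMb1. Over the alternatives listed below they ran from 1.15 to 1.53 for H2-DMa and from 1.21 to 2.26 for H2-DMb1.

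Ciita, the coactivator, did not follow the pattern by which the genes were chosen. It read 5.42, 5.70 and 5.31 in uninjured kidney and 5.41, 5.02 and 5.09 in UUO. The folic acid arrays read 5.02, 4.94 and 5.14 on day 3, 5.09, 5.06 and 4.92 on day 7, and 4.96, 4.99 and 4.94 on day 14. Uninjured kidney was the highest group on this probe set, above every folic acid array, and the 3 folic acid days overlapped one another. The difference between the day 7 and day 3 means was -0.01 (SE 0.14). The day 14 mean was -0.52 from uninjured kidney, and -0.53 without array 8. The other 2 probe sets of Ciita gave differences from uninjured kidney at day 14 of 0.38 and -0.21, so the direction was not shared among its probe sets. The set used read 4.92 to 5.70, beside array medians of 4.93 to 5.06. The set that gave 0.38 read 4.03 to 4.72 and passed the 40th percentile in only 2 arrays. The set that gave -0.21 read 4.37 to 4.98 and passed it in 10 arrays.

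Over the 7 genes the median difference from uninjured kidney was -0.36 on day 3 of folic acid, 2.95 on day 7 and 3.54 on day 14, while the median over all tested genes was 0.02, 0.01 and 0.02. The groups did not overlap with uninjured kidney for 7 of 7 genes at day 7 and at day 14, 6 of them higher, and for 4 of 7 at day 3, 1 of them higher. The like shares of all tested genes were 18.4% higher and 15.3% lower without overlap at day 7, 15.5% and 12.2% at day 14, and 22.7% and 19.4% at day 3. By limma, of all tested genes 10.6% were called higher and 6.39% lower at day 3, 7.5% and 4.19% at day 7, and 4.2% and 1.47% at day 14, at an adjusted p under 0.05. After quantile normalisation the higher share of these calls was 51.0% at day 3, 51.6% at day 7 and 59.4% at day 14, against 62.5%, 64.2% and 74.1% on the deposited values. Day 7 and day 3 did not overlap for 6 of 7 genes, all higher at day 7, where 6.39% of all tested genes were higher and 7.85% lower without overlap, and limma called 0.274% higher and 0.422% lower. The rule used these contrasts.

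**Figure D2:**
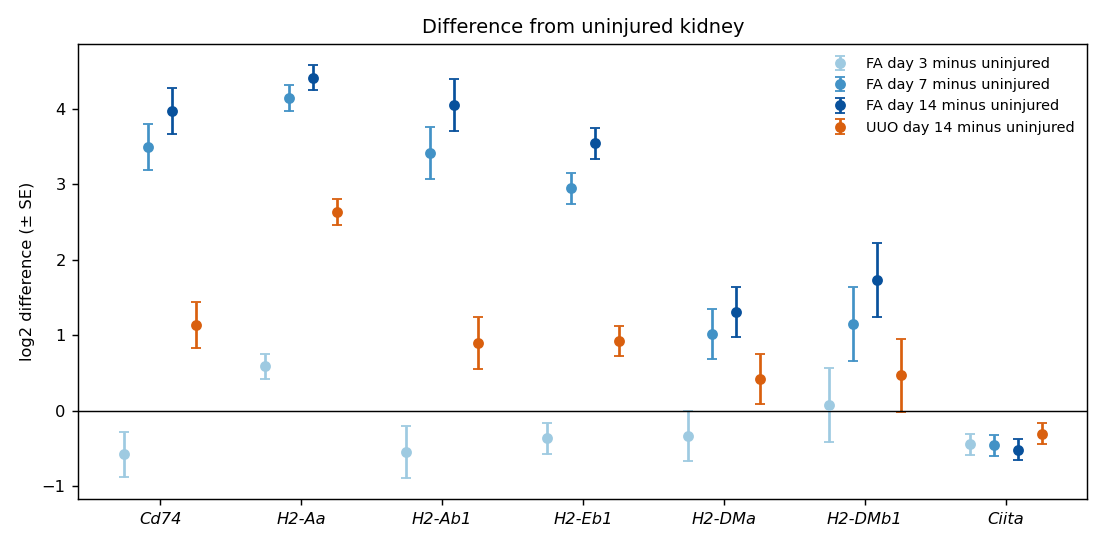
Log2 difference of each injury group from uninjured kidney for the 7 genes, with bars of 1 standard error from the fit over all arrays (3 arrays per group, FA, folic acid, UUO, unilateral ureteral obstruction). Folic acid day 3 lay between -0.58 and 0.59, days 7 and 14 reached 4.15 and 4.41 in H2-Aa, and UUO was largest in H2-Aa at 2.63.

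The obstructed kidneys were set against uninjured kidney, a contrast the choice of genes did not rank, and limma's moderated test was applied. The same uninjured arrays entered contrasts that the choice used, so the p-values of the members in UUO are not fully independent of the choice. Of the 7 genes 3 rose and none fell: H2-Aa, H2-Eb1 and Cd74. At an unadjusted p under 0.05, 4 were higher and 1, Ciita, was lower. Of all tested genes 9.07% were called higher and 7.52% lower at an adjusted p under 0.05. Their share at the unadjusted threshold was not counted. The unadjusted counts, here and for the lists below, therefore have no background to stand beside. H2-Aa was higher by 2.63 (SE 0.17), which is 6.19-fold, with a limma adjusted p of 2.05e-06. H2-Eb1 was higher by 0.92 (SE 0.20, limma adjusted p 0.00861) and Cd74 by 1.13 (SE 0.30, limma adjusted p 0.0235), and in all 3 genes every UUO array lay above every uninjured array, as in 20.3% of all tested genes, while 20.9% lay below without overlap.

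H2-Ab1 also had all 3 UUO arrays above uninjured kidney, by 0.90 (SE 0.35), but did not pass the test (limma adjusted p 0.102). H2-DMa gave 0.42 (SE 0.33, limma adjusted p 0.433) and H2-DMb1 0.47 (SE 0.49, limma adjusted p 0.574), with overlapping groups. Ciita gave -0.31 (SE 0.14, limma adjusted p 0.166). The median over the 7 genes was 0.90 and over all tested genes -0.01. The call of Cd74 rested on single arrays: it was lost without array 10, 11, 13 or 15, with differences of 1.10, 0.82, 1.10 and 1.08 and limma adjusted p-values of 0.0639, 0.0928, 0.0654 and 0.0757. The calls of H2-Aa and H2-Eb1 were kept under each array left out.

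UUO and folic acid day 14 were sampled at the same day but after different injuries. Cd74, H2-Aa, H2-Ab1 and H2-Eb1 were lower in every UUO array than in every day 14 folic acid array, by 2.84, 1.78, 3.15 and 2.62 between the means. H2-DMa and H2-DMb1 overlapped, and Ciita lay slightly higher in UUO, by 0.21 with no overlap. The share of all tested genes without overlap was not counted for this pair of groups, so the separation has no background to stand beside. The choice of genes used the day 14 levels, so these differences are a description.

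Folic acid days 7 and 14 were both used in the choice, so the difference between them is given without a test. The day 14 mean was above the day 7 mean by 0.60 (SE 0.20) in H2-Eb1, 0.64 (SE 0.35) in H2-Ab1, 0.48 (SE 0.30) in Cd74 and 0.27 (SE 0.17) in H2-Aa. It was above by 0.58 (SE 0.49) in H2-DMb1 and 0.29 (SE 0.33) in H2-DMa, and Ciita gave -0.06 (SE 0.14). The days overlapped in 6 of 7 genes, the exception being H2-Aa, and the share of all tested genes without overlap was not counted for these days. Without array 8 the differences were 0.83 in H2-Eb1, 0.73 in Cd74 and 1.11 in both H2-Ab1 and H2-DMb1. These were the upper ends of the ranges over the alternatives listed below. The ranges were 0.44 to 0.83 in H2-Eb1, 0.22 to 0.73 in Cd74, 0.38 to 1.11 in H2-Ab1 and 0.06 to 1.11 in H2-DMb1. Of all tested genes limma called 0.00739% higher and 0.0444% lower on day 14, and none of the 19 other genes of the class II route described below, where 1 was lower at an unadjusted p under 0.05.

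Probe sets of the same gene gave different sizes. The 7 genes had 14 probe sets, of which the one with the highest mean was used. H2-Aa was higher at folic acid day 14 by 4.41, 5.93 and 3.65 on its 3 probe sets, and in UUO by 2.63, 2.96 and 0.97. H2-Ab1 was higher at day 14 by 4.05, 2.83 and 1.65, but its UUO difference was 0.90, 0.14 and -0.46, so its direction in UUO was not shared among probe sets. H2-DMa gave 1.31 and 1.44 at day 14 and 0.42 and -0.06 in UUO. The names of some of these probe sets carry the suffix x, which the array's maker uses for probes that may also match other transcripts, among them the sets used for H2-Aa and H2-DMa. The day 3 difference of H2-Aa was 0.59, 0.16 and -0.06, so its size and direction at day 3 differed among probe sets. That of H2-Ab1 was -0.546, 0.185 and -0.399, so its direction at day 3 was not shared either.

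**Figure D3:**
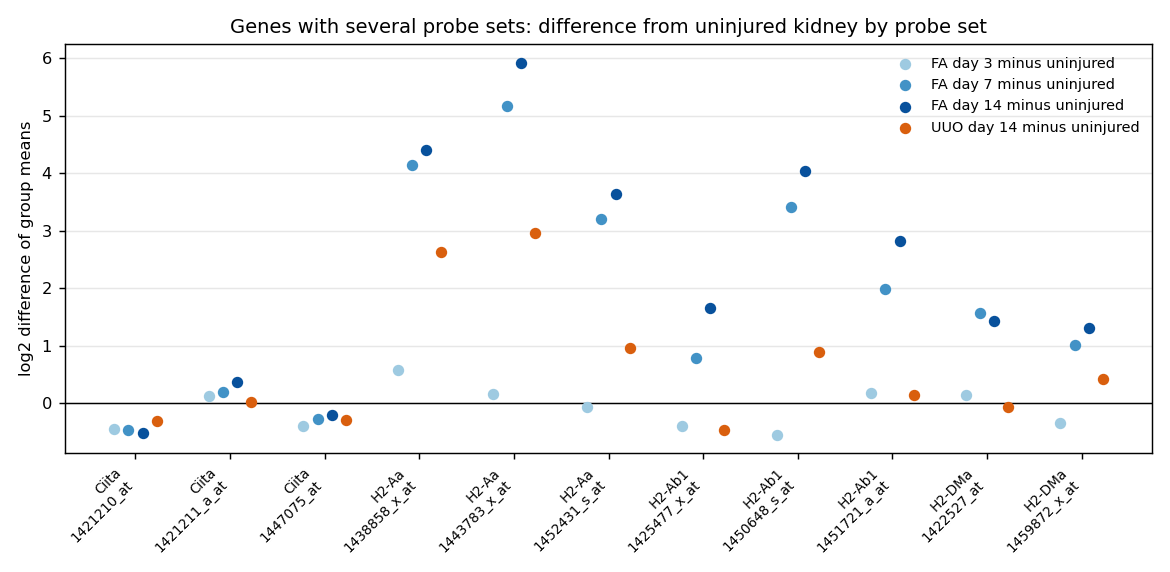
Difference of group means from uninjured kidney on the log2 scale for each probe set of Ciita, H2-Aa, H2-Ab1 and H2-DMa (3 arrays per group, FA, folic acid, UUO, unilateral ureteral obstruction). All probe sets of H2-Aa, H2-Ab1 and H2-DMa lay above 0 at folic acid days 7 and 14, while in UUO the H2-Ab1 probe sets ran from -0.46 to 0.90.

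Other genes of the class II route were taken from a list of 20, of which 19 were measured and tested. Each injury group was compared with the same uninjured arrays. Against it 4 rose and 2 fell on day 3 of folic acid, 6 rose and 2 fell on day 7, and 5 rose and 1 fell on day 14. In UUO limma called none higher, where 6 were higher at an unadjusted p under 0.05, and 2 fell. The medians of the list were 0.01, 0.49, 0.28 and 0.24 in that order. The shares of the list that rose, 21.1%, 31.6% and 26.3% on days 3, 7 and 14, stand beside 10.6%, 7.5% and 4.2% of all tested genes. The risers included Ctss, the cysteine protease that cleaves the invariant chain, Ctsd and Ctsb, lysosomal proteases, and Ifi30, the thiol reductase that opens disulfide bonds of antigen, while the endosomal proteases Ctsl and Lgmn passed no test. The day 7 count dropped to 3 without array 5 or 14, and the day 14 count to 3 without array 7, 13, 14 or 15, and it was 6 without array 8.

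Ctss read 4.81, 6.07 and 5.37 in uninjured kidney and 6.76, 6.36 and 7.47 in UUO. After folic acid it read 7.67, 8.36 and 7.46 on day 3, 9.70, 10.88 and 11.20 on day 7, and 10.69, 9.69 and 11.47 on day 14. Each injury group lay above uninjured kidney, day 3 included, where the means of Cd74, H2-Ab1 and H2-Eb1 were below it. The differences were 2.42 at day 3, 5.18 at day 7 and 5.21 at day 14 (each SE 0.51, limma adjusted p 0.00674, 5.91e-05 and 0.000105). In UUO the difference of 1.45 did not pass (limma adjusted p 0.0736). Of this list 1 of 19 genes rose from day 3 to day 7, Ctss, by 2.77 (limma adjusted p 0.0314), a call lost without array 1, 2, 3, 5 or 6 (limma adjusted p 0.0555 to 0.114).

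Ifi30 rose by 1.42 at day 3, 1.72 at day 7 and 2.27 at day 14 (SE 0.28, limma adjusted p 0.00436, 0.00187 and 0.000608), and Ctsd by 1.45, 1.73 and 1.70 (SE 0.34). Fcgrt, the neonatal Fc receptor, rose by 1.35, 1.30 and 1.25, calls lost on day 3 without array 14, on day 7 without array 5, 14 or 15, and on day 14 without array 7, 13, 14 or 15. Ctsb rose at day 7 by 1.08, a call lost without array 5, 13 or 14. Cd86, a costimulatory ligand for T cells, rose by 0.57 at day 7 and 0.64 at day 14, but lay at 5.59 or below in every array, and the call was lost without any 1 of the 6 arrays on day 7 and on day 14 without any but array 8.

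H2-Ea fell in all 4 injury groups, by 1.03 (day 3), 0.84 (day 7), 0.85 (day 14) and 0.79 (UUO), with limma adjusted p-values of 0.00156, 0.00818, 0.0131 and 0.00765. The day 14 call was lost without array 7 (limma adjusted p 0.0506) or 14 (0.0639). It read 6.58 to 6.89 in uninjured kidney and 5.42 to 6.19 in all injured arrays. Marchf8, a ubiquitin ligase, fell by 1.03 at day 3, 1.48 at day 7 and 1.23 in UUO, calls lost on day 3 without array 2, 3, 14 or 15 and in UUO without array 11. The nonclassical H2-Oa, H2-Ob and H2-Eb2 and the second H2-DM beta gene, H2-DMb2, passed no test in any comparison. H2-DMb2 gave 0.07 at day 7 and 0.39 at day 14, where H2-DMb1 gave 1.15 and 1.73. H2-DMb1 and H2-DMb2 are close copies, so the split of signal between them is uncertain.

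Of 17 genes of class II transcription, 14 were measured and tested. Of these 2 rose on day 3 of folic acid, 3 on day 7 and 2 in UUO, and none fell. On day 14 limma called none, where 4 were higher at an unadjusted p under 0.05. The shares that rose, 14.3% on day 3 and in UUO and 21.4% on day 7, stand beside 10.6%, 9.07% and 7.5% of all tested genes, so the first pair lies near the background. Leaving out any 1 array brought the day 3 count to 1, and the day 7 count to 1 in 5 of 6 cases, the exception being array 4. The UUO count was 1 without array 11, 13, 14 or 15, and the day 14 count was 3 without array 8. Carm1, an arginine methyltransferase that coactivates transcription, read 7.54, 7.27 and 7.21 in uninjured kidney and 8.20, 8.31 and 8.34 in UUO. After folic acid it read 7.13, 7.51 and 7.47 on day 3, 8.34, 8.42 and 8.43 on day 7, and 8.19, 7.45 and 7.79 on day 14. Day 7 and UUO lay above uninjured kidney and day 3 without overlap, by 1.06 (limma adjusted p 0.00262) and 0.95 (limma adjusted p 0.00338) against uninjured kidney. Its rise from day 3 to day 7, 1.03 (limma adjusted p 0.0234), was lost without array 1, 2, 3, 4 or 5.

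Irf8 and Spi1, transcription factors of myeloid cells, gave 1.55 and 0.84 at folic acid day 7 (limma adjusted p 0.0242 and 0.0258). Irf8 also passed at day 3 at 1.27, and these calls were lost in 5 or 6 of the 6 cases in which 1 array was left out. Nfyc, a subunit of the factor that binds the Y box, rose by 0.95 at day 3 and 0.81 in UUO, the second lost without array 11, 13, 14 or 15, and gave 0.34 and 0.63 on days 7 and 14 without passing. Rfx5, the X box factor, gave 0.18, 0.66 and 0.18 at days 3, 7 and 14 and 0.04 in UUO, and passed no test.

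**Figure D4:**
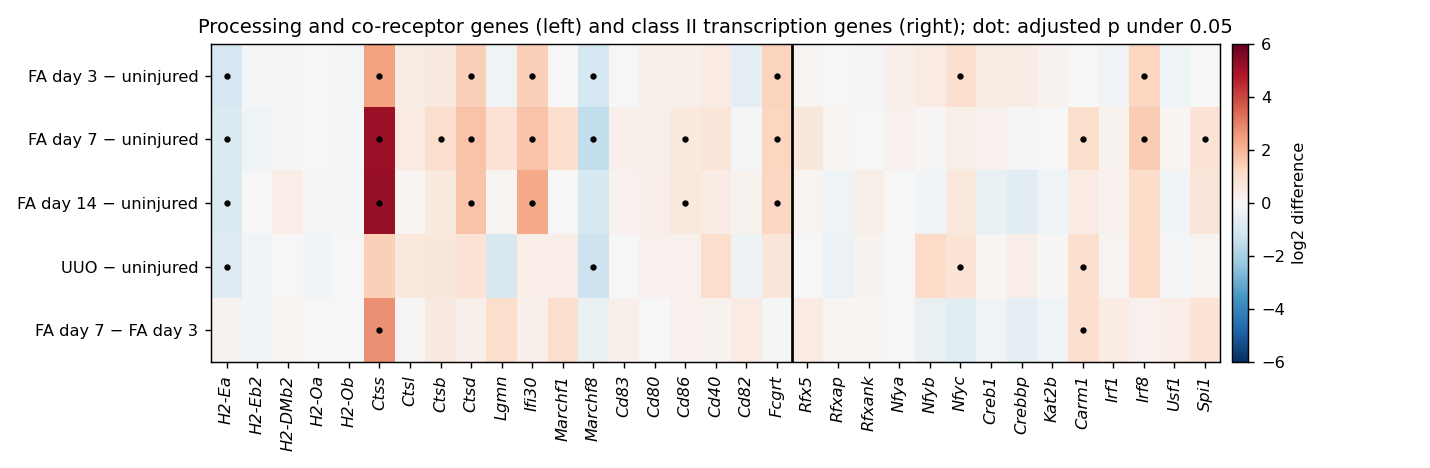
Log2 differences (colour) of the measured genes of the class II route (left of the line) and of class II transcription (right of the line) in 5 comparisons, with a dot where limma's adjusted p was under 0.05 (3 arrays per group, FA, folic acid, UUO, unilateral ureteral obstruction). Ctss reached 5.18 and 5.21 at folic acid days 7 and 14, while H2-Ea fell in all 4 comparisons with uninjured kidney.

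Interferon gamma is the classic inducer of Ciita. Of 16 listed genes of its pathway 15 were tested, and 5 rose on day 3 of folic acid, 5 on day 7, 1 on day 14 and 6 in UUO. These are 33.3%, 33.3%, 6.67% and 40% of the list, beside 10.6%, 7.5%, 4.2% and 9.07% of all tested genes. Gbp2, an interferon-induced GTPase, rose by 2.28, 2.21, 2.57 and 2.46 in these groups (limma adjusted p 0.000965, 0.00173, 0.00121 and 0.000565). Its levels overlapped between day 3, at 6.27 to 7.21, and day 7, at 6.23 to 7.27. Ifng itself read 3.55 to 3.96 in all arrays and was too dim to test. The counts moved with single arrays: 3 at day 3 without array 1, 2 or 15, 3 at day 7 without array 5 or 14 and 2 without array 15, 4 at day 14 without array 8 and 2 without array 7, and 3 in UUO without array 11, 14 or 15.

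MHC class I molecules present peptides from the cytosol. Of 18 listed genes 14 were tested, and 2 rose and 1 fell on day 3 of folic acid, 2 rose on day 7, 1 rose on day 14, and 1 rose and 3 fell in UUO. The shares that rose, 14.3%, 14.3%, 7.14% and 7.14%, stand beside 10.6%, 7.5%, 4.2% and 9.07% of all tested genes, and the 21.4% that fell in UUO beside 7.52%. Tapbp, the class I peptide loading factor, rose by 1.12, 1.14, 1.13 and 0.65, the last call lost without array 10, 12, 14 or 15. H2-K1, a classical heavy chain, fell by 1.72 at day 3 and 1.96 in UUO (limma adjusted p 0.00264 and 0.00111). Its levels were 7.61 to 8.84 in UUO and 9.56 to 10.26 in uninjured kidney. In the same UUO arrays H2-Aa, H2-Eb1 and Cd74 were above uninjured kidney. H2-D1 fell in UUO by 1.38 and Psme1 by 1.22, calls lost without array 10, 11, 12, 13 or 14. Class I heavy chains are near copies of one another, so their probes may share transcripts.

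Markers of cells that present antigen were measured in the same arrays. Of the 20 macrophage markers 19 were tested, and 2 rose on day 3 of folic acid, 12 on day 7 and 11 on day 14, while in UUO 1 rose and 1, Mrc1, fell. The shares that rose after folic acid, 10.5%, 63.2% and 57.9%, stand beside 10.6%, 7.5% and 4.2% of all tested genes. Lyz2, a lysozyme, read 3.17 to 5.90 in uninjured kidney and 7.30 to 7.93 in UUO, and after folic acid 7.21 to 7.49 on day 3, 10.11 to 10.66 on day 7 and 10.15 to 10.87 on day 14. It was the macrophage marker that rose in UUO, by 3.26 (limma adjusted p 0.000987), and 1 of the 2 that rose on day 3, by 2.99. Adgre1, which encodes F4/80, rose by 1.91 and 1.96 at days 7 and 14 and gave 0.25 in UUO, and Csf1r, the receptor that macrophages depend on, passed no test. The fall of Mrc1 in UUO was kept only without array 15, and the day 14 count was 15 without array 8, 7 without array 9 and 6 without array 14 or 15. The part of these cells in the class II levels was not tested.

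Set beside each other in each array, the mean of the 7 class II genes and the mean of the 20 macrophage markers did not keep a fixed distance. The class II mean minus the macrophage mean was 0.79 to 0.96 in uninjured kidney, 0.04 to 0.19 at folic acid day 3, -0.09 to 1.53 at day 7, 0.97 to 1.71 at day 14 and 1.14 to 1.40 in UUO. The UUO arrays all lay above the uninjured arrays in this difference and the day 3 arrays all below. Within day 7, array 4 had the highest class II mean, 8.39, and the lowest macrophage mean, 6.86, while array 6 had the lowest class II mean, 7.98, and the highest macrophage mean, 8.07. In UUO the macrophage mean of 5.50 to 5.77 was within the 5.47 to 5.78 of day 3, while the class II mean was 6.78 to 6.92 against 5.66 to 5.83. The class II genes were chosen as low at day 3, so their low place there follows from the choice, and these gaps are a description. The class II mean also holds Ciita, which did not follow the pattern, and the macrophage mean holds a marker too dim to test.

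Array 8 had the lowest macrophage mean of folic acid day 14, and it was picked after its values were seen. The mean of C1qa, C1qb and C1qc, the complement chains that mark tissue macrophages, was 6.18 there and 9.22 and 8.58 in arrays 7 and 9. The C1q mean was thus within the day 3 range of 5.47 to 6.19, but the mean of all 20 macrophage markers in array 8, 6.44, was above the day 3 range of 5.47 to 5.78. Its class II mean was 8.14, against 8.86 and 8.89 in the other day 14 arrays and at most 5.83 at day 3. Other markers of the list lay above day 3 in array 8, among them Lyz2 at 10.15, Fcer1g at 9.37 and Laptm5 at 7.74. On day 3 these read at most 7.49, 8.00 and 6.48. Ptprc at 7.05, Tyrobp at 8.51, Mrc1 at 8.37 and Mpeg1 at 7.11 also lay above day 3, where they read at most 4.28, 7.69, 7.12 and 6.45. So did Adgre1 at 5.40, Cd14 at 5.75 and C1qb at 5.91, against at most 4.92, 5.06 and 5.89 on day 3. Others did not: Cd68 at 4.75 and Trem2 at 5.45 lay below every day 3 array. Csf1r, Cx3cr1, Aif1, Ms4a7, Fcgr3, C1qa, C1qc and Itgam lay within the day 3 range in array 8.

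**Figure D5:**
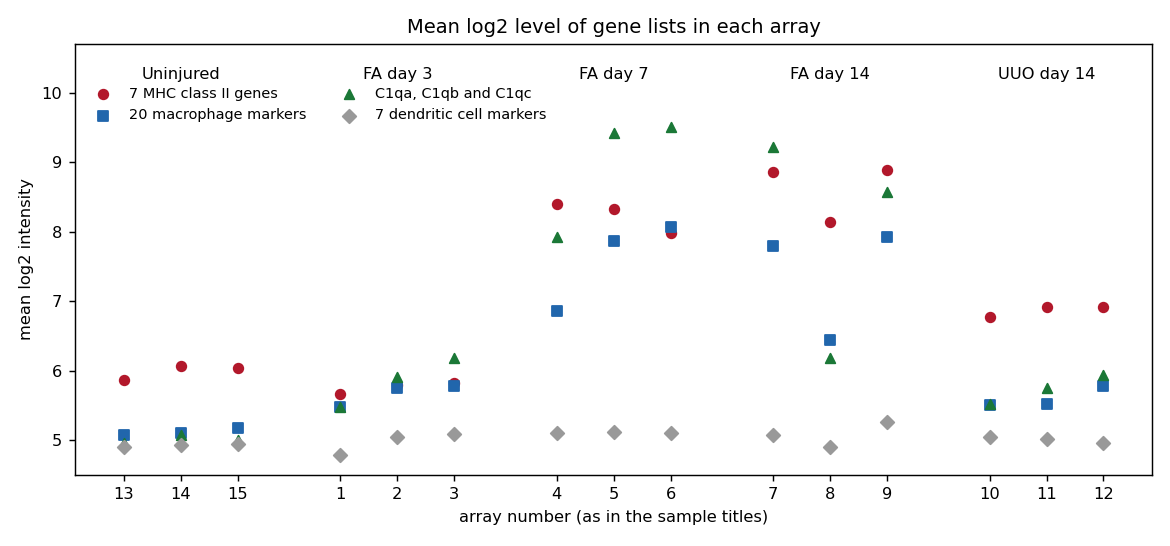
Mean log2 intensity in each array of the 7 MHC class II genes, 20 macrophage markers, the 3 C1q chains and 7 dendritic cell markers, by group (FA, folic acid, UUO, unilateral ureteral obstruction). Class II and macrophage means were both high at folic acid days 7 and 14, in array 8 the C1q mean was 6.18, the macrophage mean 6.44 and the class II mean 8.14, and dendritic cell markers stayed between 4.78 and 5.26.

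Markers of the other antigen-presenting cells were also measured. Of 10 dendritic cell markers 7 were measured and 5 tested, and limma called none against uninjured kidney, with 1 higher at an unadjusted p under 0.05 on day 7 and 1 on day 14. Without array 8, 1 of them, Itgax, was called higher on day 14, by 0.86 (limma adjusted p 0.0396). Their mean was 4.91 to 4.94 in uninjured kidney and 4.96 to 5.04 in UUO, and after folic acid 4.78 to 5.08 on day 3, 5.11 to 5.12 on day 7 and 4.90 to 5.26 on day 14. All day 7 and UUO arrays thus lay above the uninjured arrays in this mean. Itgax, which encodes CD11c, read 4.92 to 5.30 at day 7, 5.23 to 6.20 at day 14 and 4.86 to 5.45 in uninjured kidney, and Flt3, the receptor of their precursors, 4.97 to 5.38 in all arrays. Limma called none of 4 tested B cell markers against uninjured kidney, with 1 lower at an unadjusted p under 0.05 on days 3 and 7 and in UUO, and Cd79a, part of the B cell receptor, read 4.47 to 5.28. Of 4 tested T and NK cell markers 1, Cd3d, fell in UUO, by 0.42 (limma adjusted p 0.0496), a call lost without array 10, 11, 12, 13 or 14, and Cd3e, a subunit of the T cell receptor complex, read 4.13 to 5.43. None of these defining markers can be read as 0 on this scale, on which the array medians lay near 5.

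The 10 genes whose level followed the mean of the class II genes most closely over 15 arrays were named by Pearson correlation, as a description. They were Ly86 (r 0.922), Bcl2a1a (0.911), Ccl5 (0.911), Cd52 (0.910), Aplnr (0.893), Clec7a (0.891), Pld4 (0.884), Csf2rb (0.882), Laptm5 (0.878) and Cd14 (0.869). Laptm5 and Cd14 are on the macrophage list, and Bcl2a1a has near-identical copies that its probes may share. Ly86, which encodes an accessory protein of a Toll-like receptor relative, read 8.28 to 8.78 at folic acid day 7 and 6.99 to 9.13 at day 14, but 4.95 to 5.52 in UUO. Aplnr, the apelin receptor, read 8.31 to 8.73 at day 7 and 7.57, 5.39 and 3.42 in the 3 UUO arrays. The arrays share groups, so a gene high at days 7 and 14 for any reason scores high here. Among the members, H2-Eb1 (r 0.992), H2-Ab1 (0.985), Cd74 (0.977) and H2-Aa (0.93) followed the mean of the other members most closely, H2-DMa (0.88) and H2-DMb1 (0.778) less so, and Ciita ran the other way (r -0.521). The members were chosen by their folic acid levels in these same arrays, so high correlations among them follow from the choice.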

How the data were processed

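RNA from sorted fibroblasts was isolated with Trizol, amplified and labelled with biotin, per the labels' protocols. The values deposited by the authors are intensities on a log2 scale, for 45141 probe sets and 15 arrays, and the submitters' processing notes name RMA, affy and limma, without versions or roles. They were used without further normalization, and the genome build of the array design is not given in the sources used here. RMA compresses folds of dim genes. The number of arrays limits precision.

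Probe sets were named through the platform annotation: 28898 named 1 gene, 551 several and 15692 were unnamed here. Each gene took the probe set of highest mean over the arrays. Testing required 3 or more arrays above their own 40th percentile. A model with 1 mean for each group was fitted by limma 3.58.1 under R 4.3.3 (lmFit, eBayes, 2-sided, Benjamini-Hochberg within a comparison, threshold 0.05). The planned test of the members between folic acid days 14 and 7 is not given, since both days entered their choice. The fit was tested on simulated data. Plots used matplotlib 3.10.9. Promoter windows are from RefSeq (GRCm38.p6), and none was held for Cd74, H2-Ab1 or Ciita.

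The members and lists were chosen with earlier results of these data known. The rule for named genes took all 7 members, any gene of the class II route and class II transcription lists, up to 4 called genes with the smallest p of other lists, the 10 genes most like the members, and Pdgfra, Col1a1, Acta2, Lyz2, Csf1r, Adgre1, Itgax, Cd79a and Cd3e. Flt3, Ifng, Mrc1, Cd3d, Fcer1g, Cd68, Trem2, Cx3cr1, Aif1, Ms4a7, Fcgr3, Ptprc, Tyrobp, Mpeg1, Itgam and the C1q chains were named after their values were seen. Alternatives were quantile normalization, median centring, the mean of probe sets, array weights, eBayes with trend and robust options, a fit to the 6 arrays compared, filters at no or the 60th percentile, a threshold of 0.01 and leaving out each array.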

Additional observations from a re-analysis of the deposited data

Results flagged for a closer look

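For Cd74, H2-Ab1 and H2-Eb1 every folic acid day 3 array lay below the uninjured mean and every array of the other injury groups above it. The day 3 difference from uninjured kidney was -0.58 for Cd74, -0.55 for H2-Ab1 and -0.36 for H2-Eb1. The corresponding differences at day 7 were 3.50, 3.41 and 2.95, at day 14 they were 3.97, 4.05 and 3.54, and in UUO they were 1.13, 0.90 and 0.92. The probe sets of H2-Ab1 not used here gave 0.185 and -0.399 at day 3 and 0.14 and -0.46 in UUO. Its directions at day 3 and in UUO were thus not shared among probe sets. The difference between these effects was not tested, all share the uninjured arrays, and the choice of genes used the folic acid levels.

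Ctss and Carm1 differed between folic acid day 7 and day 3 by the test of that difference itself, by 2.77 and 1.03 (limma adjusted p 0.0314 and 0.0234). Both calls rested on single arrays. That of Ctss was lost without array 1, 2, 3, 5 or 6, and that of Carm1 without array 1, 2, 3, 4 or 5. Outlier tests were not run, since the groups hold 3 arrays each.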

How the results depend on the processing

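No paired analysis was possible because the running numbers are not shared between groups. Over 624 member differences under the alternatives, 618 kept their sign (the exceptions were small differences of Ciita and H2-DMb1), 10 untested ones moved by more than the spread between arrays, 6 calls were lost and 2 gained. Of these, Cd74 in UUO lost its call also with only the 6 arrays compared (limma adjusted p 0.0557) and at the 0.01 threshold, and H2-Ab1 in UUO gained one with array weights (0.0182) and with only the 6 arrays (0.0391). With the mean of probe sets H2-Ab1 gave 2.06 at folic acid day 7, 2.84 at day 14 and 0.19 in UUO. The count of members called in UUO stayed between 2 and 4 under the alternatives run.

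Counts over all genes moved more. At a threshold of 0.01 they were 1114 of 2304 at day 3, 619 of 1580 at day 7, 263 of 767 at day 14, 1128 of 2244 in UUO, 20 of 94 between days 7 and 3, and 1 of 7 between days 14 and 7. Array weights gave 3471 in UUO and 0 between days 14 and 7. The 6 arrays compared alone gave 397 at day 14, 16 between days 7 and 3 and 0 between days 14 and 7, where no filter gave 4. Leaving out 1 array gave 1463 to 1812 at day 3, 880 to 1622 at day 7, 350 to 892 at day 14, 1495 to 1819 in UUO, 31 to 180 between days 7 and 3, and 2 to 50 between days 14 and 7. The causes were not tested. Dim probe sets such as those of Ciita and H2-DMb1 limit what can be seen of small changes.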
